A study of Homo sapiens with 6 samples.

Results

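MicroRNA genes give rise to short regulatory RNAs, and 173 of them could be read on arrays of HaCaT cells in which TP63 had been knocked down. They were taken as every gene in the platform annotation whose only symbol begins with MIR and a digit or with MIRLET, without the symbols ending in HG that name longer host transcripts. They are 173 of the 18404 genes that a probe set with a single gene symbol represents. Where a gene had several probe sets, the one with the highest mean was used. Positions of probe sets are left out, since no genome build is named for the array.

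A microRNA is cut from a hairpin within a longer primary transcript. The nuclear enzyme DROSHA with DGCR8 releases the hairpin, XPO5 exports it, DICER1 trims it to a duplex of mature strands, and an Argonaute protein carries 1 strand to messenger RNAs that pair with its seed. The seed is bases 2 to 8 of the mature strand, and microRNAs that share a seed are grouped as a family. In keratinocytes, miR-205, miR-21, miR-31 and the miR-200 family are well known as abundant or epithelial microRNAs, and miR-203 is known for acting against p63 as basal cells leave the proliferating layer.

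The series holds 6 arrays of HaCaT, an immortalized human keratinocyte line. On 3 of them the RNA came from cells given a control short hairpin RNA (shControl) and on 3 from cells given one against TP63 (shTP63), the gene of p63, a transcription factor of basal epithelium. Both vectors were delivered by lentivirus, and RNA was taken 72 hours later, so the controls carry a virus and a hairpin too. All arrays are of 1 line. The labels do not tell whether replicates are separate infections, and the p-values therefore cover only the spread among these 6 samples, part or all of which may be technical. How far TP63 was reduced is not analysed here.

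The arrays were much alike in pattern, with correlations of 0.996 to 0.998 within a group and 0.988 to 0.991 between groups over all probe sets. A correlation does not show a shift of a whole array. The array medians over all probe sets ran from 173 to 190 on the linear scale. Over the genes with 1 symbol they ran from 8.16 to 8.18 on the log2 scale. The number of arrays limits the precision: the median standard error of a difference was 0.0531 on the log2 scale. All 8 basal keratinocyte markers checked, KRT5 and KRT14 among them, were bright, at log2 intensities of 12.2 to 13.6. Their mean level was 12.79 to 12.83 on the shControl arrays and 12.58 to 12.60 on the shTP63 arrays, and 2 of them passed as higher and 5 as lower. Of markers of other cell types, 5 of 6 for fibroblasts, 1 of 3 measured for immune cells, 1 of 3 each for endothelium and liver and 1 of 3 measured for melanocytes exceeded the background level defined below. PTPRC, CD3E, DCN, PECAM1, MLANA and ALB were under it. The mean level of the immune markers was 6.32 to 6.42 with shControl and 6.61 to 6.73 with shTP63, where 1 rose, and that of the fibroblast markers 7.27 to 7.35 and 7.32 to 7.39, where 1 rose and 1 fell. Their part in the results was not tested. In a bulk sample fewer cells of a type and less RNA per cell cannot be told apart.

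The values are probe set intensities on a log2 scale. Per the labels' protocols, total RNA was primed with oligo-dT, which needs a poly(A) tail, and a mature microRNA has none. The probe sets are those of a whole-transcript array, which is usually labelled in another way, and which labelling was used could not be settled. A probe set at a hairpin can take up signal from any longer RNA that runs through it, the primary transcript or the host gene's RNA. Each value below is therefore a level of RNA matching the hairpin's locus and cannot be read as a level of the active microRNA.

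The mature sequences of the microRNAs whose loci differed most, and of relatives sharing their seed, show which genes could feed the same targets. They are copied from RefSeq (GRCh38.p14), 5′ to 3′, with the seed in capitals.
hsa-miR-21-5p: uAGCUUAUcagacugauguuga
hsa-let-7a-5p: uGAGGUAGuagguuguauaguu
hsa-let-7f-5p: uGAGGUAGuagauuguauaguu
hsa-miR-15a-5p: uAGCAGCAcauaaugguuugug
hsa-miR-15b-5p: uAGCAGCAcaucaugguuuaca
hsa-miR-16-5p: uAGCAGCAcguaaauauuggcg
hsa-miR-130b-3p: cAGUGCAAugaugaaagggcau
hsa-miR-301a-3p: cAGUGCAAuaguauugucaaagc
hsa-miR-200c-3p: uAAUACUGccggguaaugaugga
hsa-miR-429: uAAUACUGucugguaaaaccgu
hsa-miR-141-3p: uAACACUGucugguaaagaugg
hsa-miR-25-3p: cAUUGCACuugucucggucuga
hsa-miR-32-5p: uAUUGCACauuacuaaguugca
hsa-miR-30c-5p: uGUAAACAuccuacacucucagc
hsa-miR-30e-5p: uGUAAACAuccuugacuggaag
hsa-miR-181a-5p: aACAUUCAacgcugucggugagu
hsa-miR-181b-5p: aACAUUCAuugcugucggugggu
hsa-miR-24-3p: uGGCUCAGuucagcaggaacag
hsa-miR-147a: gUGUGUGGaaaugcuucugc
hsa-miR-31-5p: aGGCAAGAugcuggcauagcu
The let-7a and let-7f strands differ at 1 of 22 positions, miR-15a and miR-15b at 4 of 22, and miR-15a and miR-16 at 6 of 22. Outside their shared seed miR-130b and miR-301a have little in common, with differences at 11 of 22 positions. The miR-200c and miR-141 strands, cut from neighbouring hairpins, differ at 4 of 22 positions, and their seeds are not the same.

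More microRNA genes rose than fell after TP63 knockdown. A gene was counted as risen or fallen where limma's two-sided test of shTP63 against shControl, adjusted by Benjamini-Hochberg over all 18404 genes, gave an adjusted p under the threshold of 0.05. On that rule 52 of the 173 rose (30.1%), 2 fell (1.16%) and 119 did not pass. Over all 18404 genes the shares were 16.4% higher and 25.1% lower. The 3 arrays of shTP63 all lay above the 3 of shControl for 60 microRNA genes, and all below for 3. Over all genes the arrays of the groups lay apart in this way for 20.9% in the higher and 30.4% in the lower direction.

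The median difference, shTP63 minus shControl, was 0.08 on the log2 scale over the 173 microRNA genes, with a range of -0.18 to 1.45, and 125 were positive. The median over all genes was -0.01 and over 360 olfactory receptor genes, which skin cells hardly use, 0.01. The median level of the 173 on each array was 5.71, 5.76 and 5.73 with shControl and 5.79, 5.95 and 5.94 with shTP63, so the groups did not overlap. These counts depend on the scaling between arrays. When each array was centred on its median over all probe sets, the split became 29 higher and 24 lower, and with quantile normalization over all probe sets 30 higher and 12 lower. Centring moved the median of all genes to -0.12 and of the microRNA genes to -0.02, both by the same amount, since it shifts every gene of an array alike. Before centring, the shTP63 arrays thus had on average the higher medians over all probe sets. All genes then passed as 9.68% higher and 43.1% lower, and under that quantile normalization as 14.1% and 31.4%.

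**Figure D1:**
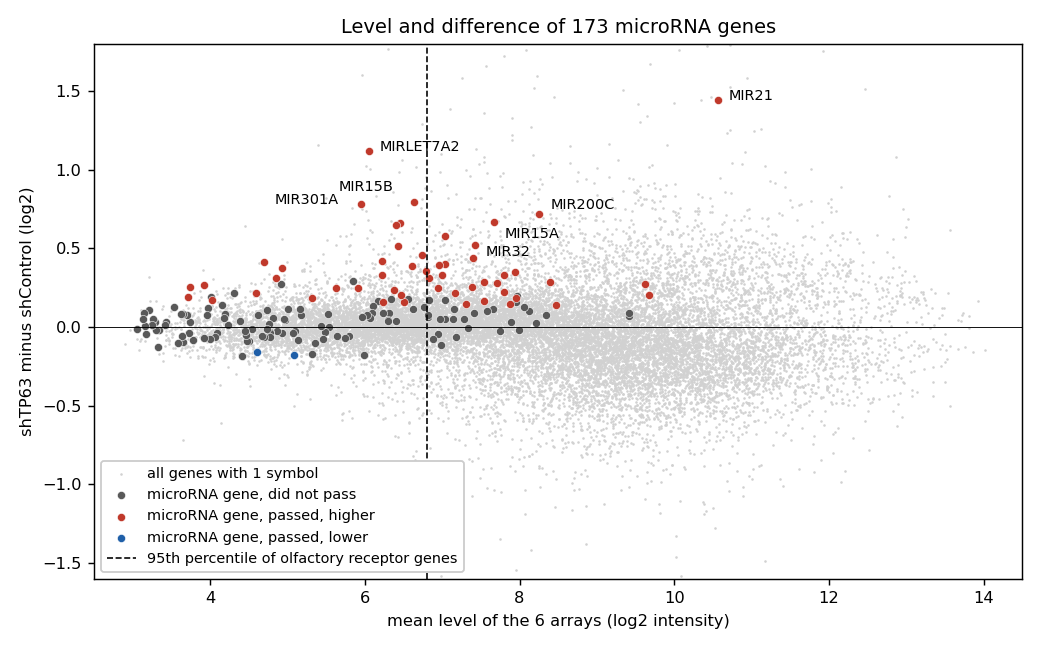
Difference between shTP63 and shControl (log2) against the mean level of the 6 arrays (log2 intensity) for the 173 microRNA genes, coloured by the limma call, over all genes with 1 symbol in grey; genes beyond the axis limits are not drawn. Red points, the 52 that rose, lie on both sides of the dashed line at 6.81 (olfactory receptor 95th percentile), while MIR21 lies apart at a level of 10.57 and a difference of 1.45.

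Most microRNA genes gave little signal. The 95th percentile of the mean levels of the 360 olfactory receptor genes, 6.81, was used as the background level, and 54 of the 173 microRNA genes exceeded it (31.2%) against 71.6% of all genes. Just inside were MIR425 at 6.83, MIR196A1 at 6.81 and MIR504 at 6.81, and just outside MIR181B1 at 6.79, MIR219A2 at 6.77 and MIR30C2 at 6.74. Of the 54 above it, 26 rose and 0 fell, their median difference was 0.15, and 47 were positive. The level is a mean over the arrays of both groups, so a rise can itself lift a gene above background. The risen MIRLET7F1, MIR147A and MIR141 had shControl means of 6.75, 6.77 and 6.67, under the background level. Their shTP63 means were 7.33, 7.16 and 6.99, above the background level. Among all 13180 genes above it, 19.7% rose and 33.0% fell. The 119 at or under it held 26 rises and 2 falls, and their median difference was 0.06. The count of 0 falls above background was 4 under centring and under quantile normalization, and 1 under cyclic loess.

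Since few microRNA genes are bright, they were also set beside genes of like level by dividing all genes into 5 equal bins of mean level. In the dimmest bin 14.3% of 98 microRNA genes rose and 2.04% fell, against 6.36% and 4.43% of all genes there. In the next bin 48.9% of 47 rose and 0 fell, against 13.7% and 8.67% of all. In the middle bin 52.2% of 23 rose and 0 fell, against 18.0% and 25.4%. The upper bins held 4 microRNA genes, of which 2 rose, and then MIR21 alone.

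**Figure D2:**
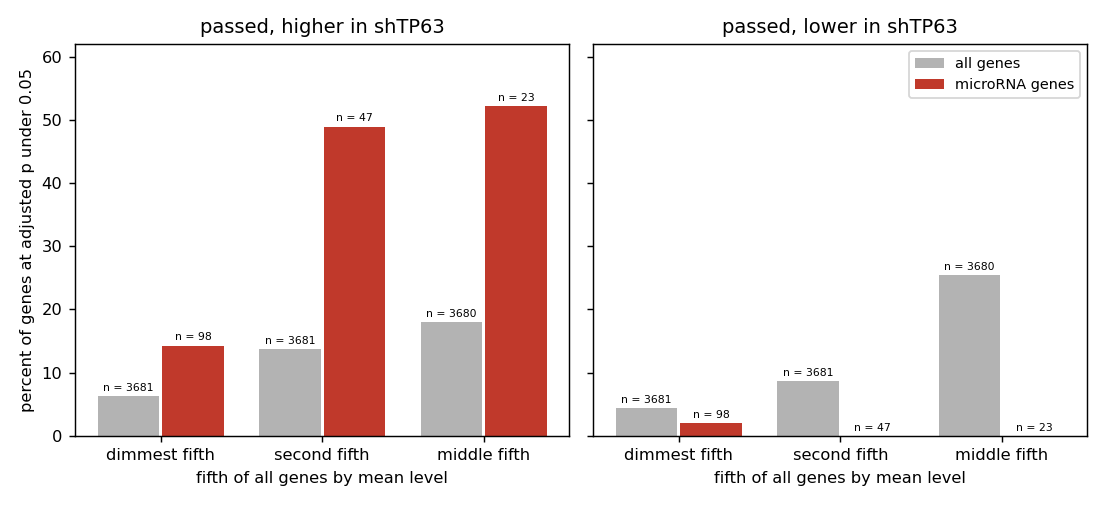
Share of genes (percent) that rose or fell in the 3 lower bins of mean level, for all genes and for microRNA genes. In the bins above the dimmest 48.9% and 52.2% of the microRNA genes rose and 0 fell, while among all genes the falling share grows with level.

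MIR21 changed most of the 173. Its hairpin, which RefSeq places on the plus strand within the span of VMP1 at chr17:59841266-59841337 (GRCh38.p14), is 72 bases long, and the capitals mark the miR-21-5p strand.
MIR21 hairpin: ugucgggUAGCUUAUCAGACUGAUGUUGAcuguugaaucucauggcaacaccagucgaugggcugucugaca
miR-21 is one of the most abundant microRNAs of cultured epithelial cells and tumours. The MIR21 level was 9.88, 9.82 and 9.83 on the shControl arrays and 11.20, 11.29 and 11.37 on the shTP63 arrays. Every shTP63 array was thus more than 1 log2 unit above every shControl array. The means were 9.84 ± 0.033 and 11.29 ± 0.085 (SD, n = 3 each), a 2.72-fold rise (log2 difference 1.45, SE 0.0528, limma adjusted p 5.17e-07). The rise of VMP1, a gene of autophagy whose span holds MIR21, was smaller, at 0.53 (SE 0.045, limma adjusted p 2.85e-05).

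The let-7 genes hold back growth and embryonic programmes, with LIN28B, HMGA2 and RAS genes among their known targets. Of the 10 measured genes with the GAGGUAG seed, 4 rose and 0 fell, with differences from -0.09 to 1.12. MIRLET7A2 stood at 5.59, 5.37 and 5.53 with shControl and at 6.43, 6.60 and 6.82 with shTP63. Its groups were far apart, although both means lay under the background level. The log2 difference was 1.12 (SE 0.0968, 2.17-fold, limma adjusted p 3.28e-05). Its neighbour within 10 kb, MIR100, was dimmer still, with a mean of 3.75, and rose by 0.26 (limma adjusted p 0.00455). MIRLET7F1 read 6.76, 6.73 and 6.75 with shControl and 7.22, 7.51 and 7.25 with shTP63. Here the control arrays were within 0.03 of each other, and the difference was 0.58 (SE 0.0747, 1.49-fold, limma adjusted p 0.000277). In the same cluster MIRLET7D differed by 0.16 (adjusted p 0.0332), and that call was lost in 8 of the alternatives, among them those without shControl 1, shControl 2, shTP63 2 or shTP63 3 (0.0663 to 0.114). The cluster's MIRLET7A1, at 0.18, did not pass (adjusted p 0.0570). The 4 risen let-7 genes were MIRLET7A2, MIRLET7F1, MIRLET7D and MIRLET7G, the last by 0.21.

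The miR-15 and miR-16 genes, known for repressing BCL2 and cyclin genes, lie in pairs. In each pair the miR-15 gene rose and the miR-16 gene did not pass. MIR15B read 6.09, 6.38 and 6.24 with shControl and 6.92, 6.96 and 7.23 with shTP63, a difference of 0.80 (SE 0.0955, 1.74-fold, limma adjusted p 0.000184). Its neighbour MIR16-2 read 4.97, 4.74 and 4.64 against 4.82, 4.92 and 4.78, with a difference of 0.06 (adjusted p 0.625). At the other locus MIR15A read 7.28, 7.31 and 7.43 against 7.88, 8.05 and 8.09. That was a difference of 0.67 (SE 0.0661, 1.59-fold, limma adjusted p 6.53e-05), and its neighbour MIR16-1 had a difference of 0.07 (adjusted p 0.293). Both miR-16 probe sets were under the background level in every array, and MIR15B was under it in every shControl array. Whether the genes of a pair differed from each other was not tested. With MIR195, 2 of the 5 genes of the AGCAGCA seed rose, beside 30.1% of the 173 microRNA genes and 16.4% of all genes.

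The miR-200 family keeps epithelial cells epithelial by repressing ZEB1 and ZEB2. MIR200C read 7.84, 7.87 and 7.98 with shControl and 8.46, 8.60 and 8.80 with shTP63. The groups did not overlap, and the rise was 0.72 (SE 0.0825, 1.65-fold, limma adjusted p 0.000146). MIR141, its cluster neighbour, read 6.81, 6.56 and 6.65 against 6.96, 6.83 and 7.17, a difference of 0.31 (SE 0.0919, adjusted p 0.0221). That call was lost in 7 of the alternatives, among them those without shControl 2 (0.0796), shControl 3 (0.0608) or shTP63 3 (0.0599). The family's other cluster did not pass: MIR200B differed by 0.05 (adjusted p 0.414), MIR429 by 0.17 (adjusted p 0.148) and the dim MIR200A by -0.07. Although miR-200c, miR-200b and miR-429 share the AAUACUG seed, only MIR200C of those 3 genes rose.

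MIR301A and MIR130B share the AGUGCAA seed, and both rose. MIR301A read 5.43, 5.61 and 5.64 with shControl and 6.31, 6.40 and 6.32 with shTP63, all under the background level, with a difference of 0.79 (SE 0.0607, 1.72-fold, limma adjusted p 1.85e-05). MIR130B read 6.06, 6.08 and 6.02 against 6.32, 6.32 and 6.53, a rise of 0.33 (SE 0.0627, adjusted p 0.00237). Of the 3 genes with the AUUGCAC seed, MIR32 read 7.05, 7.26 and 7.19 against 7.61, 7.76 and 7.69. It rose by 0.52 (SE 0.0642, 1.43-fold, limma adjusted p 0.000222). MIR92A2, at a mean level of 3.72 and so under background, rose by 0.19 (adjusted p 0.0118). The bright MIR25, at 8.34, differed by 0.08 and did not pass (adjusted p 0.203).

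The 4 miR-30 genes to which the RefSeq table gives the GUAAACA seed rose, by 0.16 to 0.46, while the family's dim MIR30B (mean level 3.62) and MIR30D (3.96), which have no entry there, differed by 0.08 each and did not pass. Of the 4 that rose, only MIR30E had a mean level above background, and MIR30C1, MIR30C2 and MIR30A were under it. MIR30C2 read 6.29, 6.66 and 6.59 with shControl and 7.05, 7.00 and 6.87 with shTP63, a rise of 0.46 (SE 0.0941, 1.37-fold, limma adjusted p 0.00378). MIR30E read 7.03, 7.43 and 7.05 against 7.50, 7.49 and 7.85, so its groups were separated by a narrow gap. The difference of 0.44 (SE 0.124, 1.36-fold) passed at an adjusted p of 0.0184. It missed the threshold without shControl 1 (0.0604), without shControl 3 (0.0617) and without shTP63 3 (0.0565), and across all alternatives its adjusted p ran from 0.0035 to 0.0647. MIR30C1, next to it, rose by 0.31 (adjusted p 0.00229), and MIR30A by 0.16.

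The miR-181 genes, best known from lymphocyte development, carry the ACAUUCA seed, and 4 of 5 rose. This count stands beside 30.1% of the 173 microRNA genes and 16.4% of all genes. Of the 5, only MIR181C had a mean level above background. MIR181B2 read 6.07, 6.15 and 6.14 with shControl and 6.80, 6.71 and 6.83 with shTP63 (difference 0.66, SE 0.0496, limma adjusted p 1.54e-05). Its cluster neighbour MIR181A2 read 6.11, 6.19 and 6.23 against 6.63, 6.70 and 6.75 (difference 0.52, SE 0.0519, adjusted p 7.25e-05). In the second cluster MIR181B1 read 6.58, 6.67 and 6.59 against 6.81, 7.01 and 7.10 (difference 0.36, SE 0.0726, 1.28-fold, adjusted p 0.00349). MIR181A1 there differed by -0.02 and did not pass (adjusted p 0.836), and MIR181C rose by 0.33 (adjusted p 0.008). So of the cluster pairs, one moved as a pair and in the other a single member passed.

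Among the remaining large rises, MIR24-2 read 6.82, 6.79 and 6.90 with shControl and 7.18, 7.24 and 7.30 with shTP63 (difference 0.40, SE 0.052, 1.32-fold, limma adjusted p 0.000278). In its cluster MIR23A rose by 0.28 (adjusted p 0.00876) and MIR27A, at 0.16, did not pass (adjusted p 0.0904). MIR147A, whose product is known from inflammatory responses, read 6.74, 6.77 and 6.80 against 7.19, 7.31 and 6.99 (difference 0.39, SE 0.0749, adjusted p 0.00245). MIR31, whose product is abundant in wounded and cancerous squamous epithelium, read 6.27, 6.44 and 6.56 against 6.73, 6.88 and 6.80 (difference 0.39, SE 0.0742, adjusted p 0.00264). MIR186, named after its values were seen, rose by 0.65 (adjusted p 3.39e-05) with both groups under the background level.

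**Figure D3:**
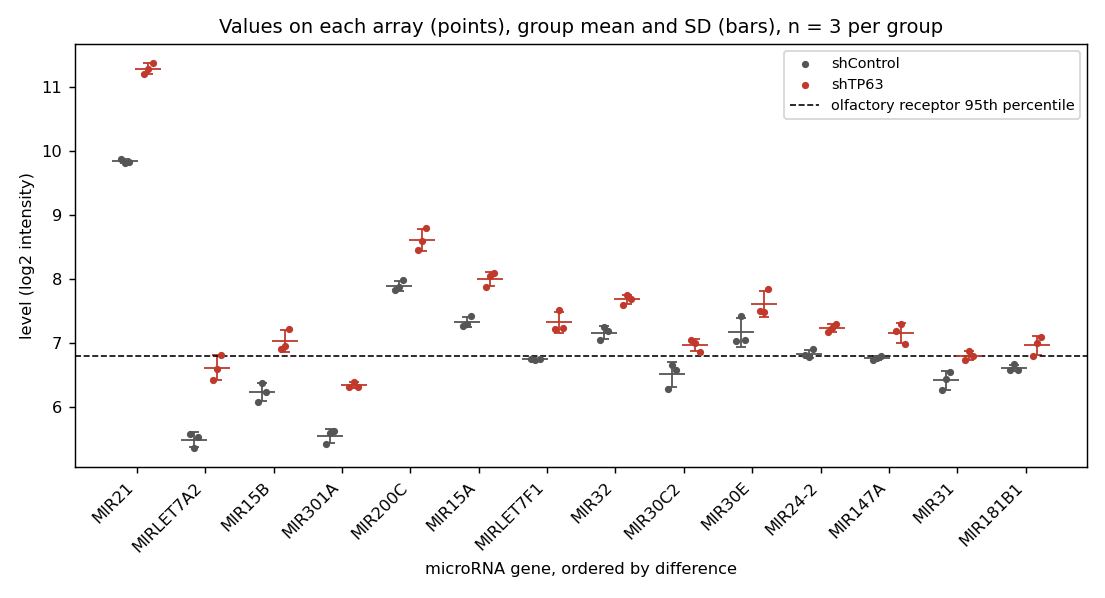
Level on each array (log2 intensity) of 14 microRNA genes, the 12 largest rises with a group mean above the background level and the 2 largest with both under it, with group means and SD (n = 3). The genes were chosen for rising, so the separation of the points is a description, and 6 of the 12 exceed the background level in shTP63 only; MIR21 stands alone above 9.8 in both groups.

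Of the 8 brightest probe sets, the 7 after MIR21 differed by 0.07 to 0.29. The first was MIR320A, at 9.59, 9.50 and 9.60 with shControl and 9.71, 9.81 and 9.80 with shTP63. It is processed without DROSHA, and it rose by 0.21 (SE 0.05, adjusted p 0.00899), a call that centring ended (0.10, adjusted p 0.118). MIR326 read 9.60, 9.40 and 9.46 against 9.72, 9.87 and 9.70, a rise of 0.27 (SE 0.0667, adjusted p 0.00946). MIR210, known as the hypoxia microRNA, read 9.42, 9.36 and 9.37 against 9.50, 9.46 and 9.40 and did not pass (difference 0.07, adjusted p 0.268). MIR339 differed by 0.09 (adjusted p 0.229). MIR197 differed by 0.29 (adjusted p 0.0376) and MIR139 by 0.14 (adjusted p 0.0424), and these calls were lost in 8 and 9 of the alternatives. Leaving out shControl 2, shControl 3 or shTP63 2 alone ended both, with adjusted p-values of 0.0872 to 0.132; MIR197 was also lost without shTP63 3, and MIR139 without shControl 1 or shTP63 1. Probe sets differ in how well they bind, so this order is of brightness and not of abundance.

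Base composition went with brightness. Over the 155 members with a hairpin in the RefSeq table, the GC share of the hairpin and the mean level had a Pearson r of 0.689 and a Spearman rho of 0.688. The points share the same 6 arrays. Among the hairpins, split into 3 classes by GC share, the median level was 4.45 in the lowest class, and 5 of 52 exceeded the background level. In the highest class it was 7.15 and 35 of 52 exceeded it. The GC share and the difference between groups had an r of -0.086 and a rho of 0.062, and 15, 16 and 18 genes rose in the lowest, middle and highest class. Within the 50 above background, the r of GC share with the difference was -0.482. That set is chosen on the mean over both groups, so a rise can itself bring a gene into it. The risen MIRLET7F1 (40.2% GC), MIR147A (41.7%) and MIR141 (55.8%) entered it with shControl means under the background level. No conclusion is therefore drawn from that r. These hairpins lie at either end, MIR326 (chr11:75335092-75335186, minus strand, 64.2% GC) being among the brightest and MIR376C (chr14:101039690-101039755, plus strand, 28.8% GC) the dimmest, with a mean level of 3.06. Capitals mark the mature strands, and positions are of GRCh38.p14.
MIR326 hairpin: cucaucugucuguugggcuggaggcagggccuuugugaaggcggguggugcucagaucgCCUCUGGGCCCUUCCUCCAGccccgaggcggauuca
MIR376C hairpin: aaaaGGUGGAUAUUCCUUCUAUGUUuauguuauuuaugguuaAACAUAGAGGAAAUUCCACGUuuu
The difference in letters is plain, as most of the MIR376C hairpin is a and u. The part of base composition in the levels was not tested.

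**Figure D4:**
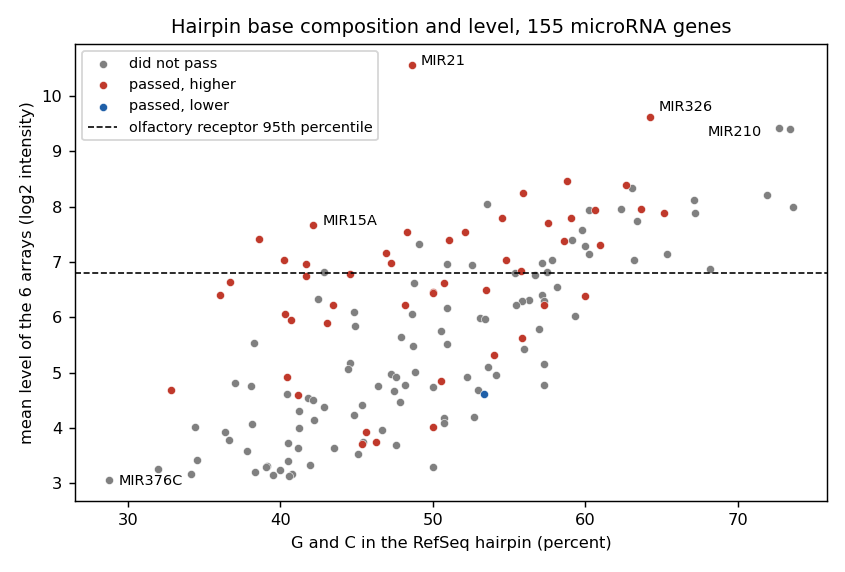
GC share of the hairpin (percent, RefSeq) against the mean level of the 6 arrays (log2 intensity) for 155 microRNA genes. Levels climb with GC share (r 0.689), from MIR376C at 28.8% and 3.06 upward, and 35 of the 52 hairpins in the highest class lie above the background line.

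MicroRNAs linked to p63 in general knowledge were counted from a list of 24, of which 16 were measured. Of these 8 rose and 0 fell, 5 exceeded the background level, and the median difference was 0.21. That is 50.0% higher, beside 30.1% of the 173 microRNA genes and 16.4% of all genes. This list, like the next, was chosen with earlier results of these data known. The risen genes were MIR15B, MIR130B, MIR141, MIR200C, 3 miR-181 genes and MIR138-1. Of these, MIR15B, MIR130B and the miR-181 genes had mean levels under the background level. MIR200C and MIR141 are cluster neighbours, as are MIR181A2 and MIR181B2. MIR138-1 read 7.27, 7.21 and 7.29 with shControl and 7.53, 7.53 and 7.47 with shTP63, a rise of 0.25 (SE 0.0442, adjusted p 0.00153), while MIR138-2 had a difference of 0.04. Of the others, picked out after their values were seen, MIR203A had 4.79 with shControl and 4.76 with shTP63 (adjusted p 0.752). MIR34A, a p53 target that p63 is known to repress, had 5.49 and 5.57 (adjusted p 0.556). Both were under the background level, where the array can show little.

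Of 22 microRNAs studied in keratinocytes, 16 were measured, 6 rose (37.5%), 0 fell, and the median difference was 0.12. The share is near the 30.1% of all 173 microRNA genes. The risen genes were MIR21, MIR24-2, MIR31, MIR100, MIR221 and MIR29A. Of these, MIR31, MIR100 and MIR29A had mean levels of 6.61, 3.75 and 4.69, under the background level. MIR221, whose product is known to repress the cell cycle inhibitor CDKN1B, read 6.76, 6.83 and 6.88 with shControl and 6.99, 7.14 and 7.35 with shTP63. Its rise was 0.33 (SE 0.0836, adjusted p 0.0109) and fell short under quantile normalization over all probe sets (0.22, adjusted p 0.0719). Its neighbour MIR222, at 0.17, did not pass. MIR29A passed at 0.41 (SE 0.135, adjusted p 0.0354) although its groups overlapped, and the call was lost in 8 of the alternatives, among them those without shControl 1, shControl 2, shTP63 1 or shTP63 3 (0.0679 to 0.118). MIR99B differed by 0.10 (adjusted p 0.341) and MIR132 by 0.12 (adjusted p 0.137).

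The 2 falls were small and in dim probe sets. MIR124-3, a gene of a microRNA best known from neurons, read 5.15, 5.19 and 5.20 with shControl and 4.95, 5.02 and 5.04 with shTP63 (difference -0.18, SE 0.0444, adjusted p 0.0112). MIR129-2 read 4.76, 4.66 and 4.64 against 4.46, 4.56 and 4.57 (difference -0.16, SE 0.0518, adjusted p 0.0352). The second call was lost in 7 of the alternatives, among them those without shControl 1, shControl 2, shTP63 1 or shTP63 2 (0.0530 to 0.116). The count of falls was 1 without shControl 1 and 4 without shTP63 3. The large cluster on 14q32, an imprinted region active mainly in brain and placenta, gave little. Only 2 of its 16 measured genes exceeded the background level. Of the 16, 1 rose (6.25%) and 0 fell, beside 30.1% and 1.16% of the 173 microRNA genes and 16.4% and 25.1% of all genes. Their median difference was -0.02 over the 16. The 1 that rose was MIR323A, by 0.17.

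Many microRNA genes lie within other genes whose RNA can run through the hairpin, so hosts were set beside them. A host was a RefSeq gene, not itself a microRNA gene, whose span on the same strand holds the member. Of the 173 genes 112 had one, and for 63 the host was measured, over 52 hosts. Of these hosts 13 rose, 21 fell, and the median difference was -0.05, beside 16.4% higher and 25.1% lower over all genes. Of the 22 risen microRNA genes with a measured host, the host rose for 5, fell for 10 and did not pass for 7. Across the 63 pairs the differences of gene and host had a Pearson r of 0.150 and a Spearman rho of -0.041. Over the 25 pairs with the microRNA gene above background, r was 0.465 and rho 0.186. Pairs share arrays, and some share a host.

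Hosts moved with their microRNA gene in some cases and against it in others. DLEU2, the host of MIR15A, rose by 0.59 (SE 0.070, adjusted p 0.000168), close to the 0.67 of MIR15A. It is also the host of MIR16-1, which differed by 0.07 and did not pass. TMEM245, the host of MIR32, rose by 0.50 (adjusted p 0.000119) beside the 0.52 of MIR32. SMC4, a condensin subunit and the host of MIR15B, differed by 0.10 and did not pass (adjusted p 0.216). SKA2, a mitotic spindle gene and the host of MIR301A, fell by 0.26 (adjusted p 0.00189) while MIR301A rose. NFYC, the host of MIR30E and MIR30C1, fell by 0.36 (adjusted p 0.000231). MIR31HG, the noncoding host of MIR31, went from 9.27 ± 0.011 to 8.52 ± 0.088 (SD, n = 3 each). It thus fell by 0.75 (SE 0.052, adjusted p 1.09e-05) while MIR31, of mean level 6.61 and so under background, rose by 0.39. In contrast, MIR152 differed by 0.05 and did not pass while its host COPZ2 fell by 0.88 (SE 0.049). The part of host transcripts in the microRNA values was not tested.

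**Figure D5:**
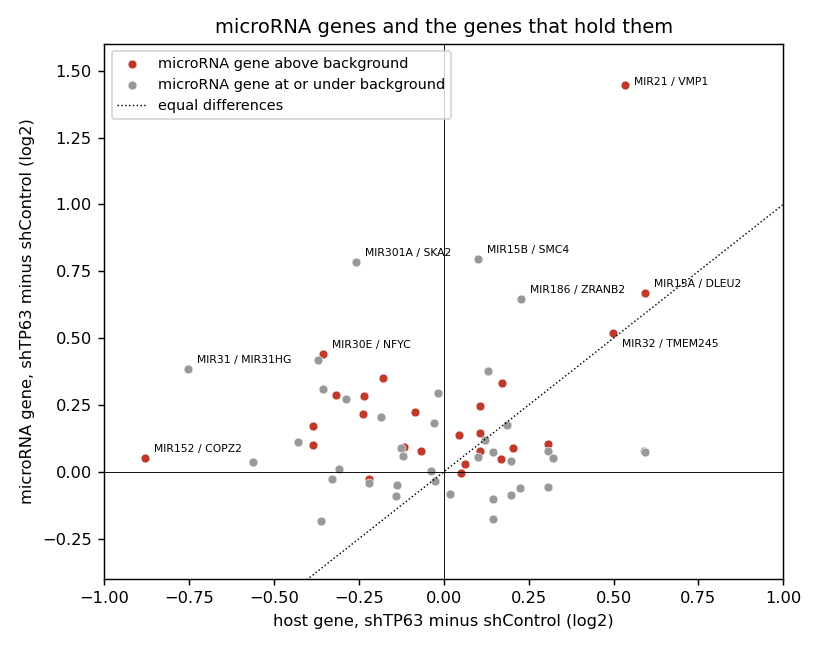
Difference of the microRNA gene against that of its host gene (both shTP63 minus shControl, log2) for 63 pairs. MIR15A and MIR32 lie near the line of equal change, MIR31 and MIR301A to the left of 0 with falling hosts, and r is 0.150 over all pairs and 0.465 over the 25 with the microRNA gene above background.

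The genes that make and use microRNAs were counted from a list of 34, of which 33 were measured. Of these 4 rose (12.1%), 12 fell (36.4%) and 17 did not pass, beside 16.4% and 25.1% of all genes. Their median difference was -0.03. Under cyclic loess 8 rose and 6 fell, beside 16.8% and 23.8% of all genes. Under quantile normalization of single-symbol probe sets 7 rose and 7 fell, beside 3497 and 3913 of all 18404 genes. Under centring 2 rose and 18 fell, beside 9.68% and 43.1% of all genes. The balance of this list thus depends on the scaling, as does that of all genes.

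Of the processing enzymes, DROSHA read 9.69, 9.73 and 9.70 with shControl and 9.34, 9.32 and 9.42 with shTP63. The groups were well apart, and it fell by 0.35 (SE 0.045, adjusted p 0.000287). Its partner DGCR8 differed by 0.09 (adjusted p 0.130) and the exporter XPO5 by -0.02 (adjusted p 0.755). DICER1 fell by 0.19 (SE 0.049, adjusted p 0.0108), a call lost under cyclic loess (-0.12, adjusted p 0.0804). Its cofactor PRKRA fell by 0.48 (SE 0.072, adjusted p 0.000666), and KHSRP, which helps let-7 precursors mature, by 0.27 (adjusted p 0.00125). The nuclease XRN2 fell by 0.21 and the RNA editing gene ADARB1 by 0.30.

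The largest rise of the list was that of ZC3H12A, the nuclease Regnase-1, which cuts precursor microRNAs and inflammatory messenger RNAs. It read 9.22, 9.20 and 9.21 with shControl and 10.12, 10.13 and 10.09 with shTP63, a rise of 0.90 (SE 0.040, 1.87-fold, limma adjusted p 1.14e-06). PNPT1, a mitochondrial RNA-degrading enzyme, rose by 0.31 (SE 0.042, adjusted p 0.000368). AGO2, the Argonaute that cuts its targets, rose by 0.25 (SE 0.058, adjusted p 0.00803), which centring reduced to 0.14 (adjusted p 0.0788). AGO1 and AGO4 fell, by 0.17 and 0.13, calls lost in 2 and 9 of the alternatives. TNRC6A, which links Argonautes to mRNA decay, rose by 0.15 (adjusted p 0.0163), and by 0.04 under centring, where it did not pass. That call was also lost without shControl 1 (0.0570) and without shControl 2 (0.0528).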

How the data were processed

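RNA of 6 HaCaT samples was read on arrays, 3 per group. The deposited values are linear intensities per probe set, made by the authors with RMA in R 2.15.1, per the submitters' processing notes; the array build is not given in the sources used here. The plan had foreseen log2 values, so log2 was taken here before testing. Of 32321 probe sets, 19158 had 1 gene symbol, 1388 several and 11775 none listed. The first class gave 18404 genes, whose linear models (lmFit, then eBayes, no covariate) were fitted in limma 3.58.1 under R 4.3.3 and first tested on simulated data. P-values were adjusted by Benjamini-Hochberg over all of them. Hosts, clusters (within 10 kb on 1 strand), seeds and hairpins came from RefSeq tables, which held a hairpin for 155 members and a strand for 164.

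Named were up to 12 largest rises with a group mean above background, the 8 brightest, listed members above background or past the threshold, the members nearest to the background level, the extremes among the dim, and hosts and neighbours. The members and lists were chosen with earlier results of these data known. Replicate numbers were not used to pair the samples in the main fit. Alternatives covered scaling, filtering, probe set choice, prior, threshold, block and left-out arrays.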

Additional observations from a re-analysis of the deposited data

How the results depend on the processing

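The balance of rises and falls among microRNA genes moved with the scaling between arrays, and the count of rises also with the filter and the threshold. With arrays centred on their median 29 rose and 24 fell (15 and 4 above background), and all genes passed as 9.68% higher and 43.1% lower. With quantile normalization over all probe sets 30 rose and 12 fell (14 and 4), beside 14.1% and 31.4% of all genes. Under cyclic loess 41 rose and 6 fell (21 and 1 above background), beside 16.8% and 23.8% of all genes. The median difference became -0.024 under centring and 0.0078 under that quantile normalization. Without the dimmest 40% of genes 28 microRNA genes were tested, of which 17 rose, all of them above background, and 0 fell. All genes then passed as 23.7% higher and 42.1% lower. The median of the microRNA genes was 0.16, beside 0.18 for the olfactory receptor genes left and -0.06 for all genes left. At an adjusted p of 0.01, 29 rose (15 above background) and 0 fell, beside 11.4% higher and 18.8% lower over all genes. A single fall was left with all probe sets tested and 0 with a trended robust prior. The 99th percentile of olfactory receptor genes left 33 above background in place of 54. Biogenesis genes rose and fell as 8 and 6 under cyclic loess and 7 and 7 under quantile normalization over probe sets with 1 gene. Over all genes the latter gave 3497 rises and 3913 falls. Of the biogenesis genes 2 rose under centring, and 5 fell at 0.01. The replicate block gave 49 rises (23 above background) and 1 fall. Same-numbered arrays had correlations of deviations of -0.15, -0.04 and 0.13, and differently numbered ones of -0.14 to 0.16. With 3 arrays per group these values cannot settle whether samples were paired. Leaving out each array in turn gave 41 to 49 rises (18 to 25 above background), 1 to 4 falls and a median of 0.07 to 0.10. All genes then passed as 13.6% to 15.8% higher and 21.3% to 23.8% lower. Of the biogenesis genes 3 to 4 rose and 8 to 13 fell. The cause of these moves was not tested.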

Other observations

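Probe sets that name a microRNA gene together with another gene were left out above, and 30 of them were measured, with p-values adjusted over all 32321 probe sets. The probe set of MIR205 and its host MIR205HG, a microRNA known from basal epithelium, read 11.28, 11.19 and 11.12 with shControl and 11.33, 11.25 and 11.51 with shTP63. The groups overlapped and it did not pass (difference 0.17, SE 0.079, limma adjusted p 0.155). The neighbours MIR23B and MIR27B, named with AOPEP, rose by 0.42 (adjusted p 0.0032) and 0.39 (adjusted p 0.0172). MIR24-1 of the same locus, at 0.22, did not pass (adjusted p 0.112). MIR224 with GABRE rose by 0.30 (adjusted p 0.016), and MIR137 with MIR137HG fell by 0.23 at a level of 4.84 (adjusted p 0.024). The probe set of MIR622 also names KRT18 and read 12.34 and 12.57, a rise of 0.23 (adjusted p 0.0186); microRNA and keratin signal cannot be told apart there.

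Of the longer host transcripts whose symbols end in HG, MIR17HG and MIRLET7BHG were picked outside the plan for naming. Among the HG transcripts measured as hosts above, MIR31HG fell by 0.75 and MIR503HG rose by 0.20. MIR7-3HG, MIR9-1HG, MIR99AHG and MIR1-1HG did not pass. MIR17HG went from 8.55 ± 0.048 to 9.14 ± 0.073 (SD, n = 3 each), a rise of 0.59 (SE 0.052, limma adjusted p 3.56e-05). MIRLET7BHG rose by 0.52 (SE 0.0595). The microRNAs within it, MIRLET7A3 at 0.28 (adjusted p 0.0693) and MIRLET7B at 0.10 (adjusted p 0.536), did not pass.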
